A study of Mus musculus with 6 samples.

Results

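The genes described here encode the proteins of the mitochondrial ribosome, in splenic germinal centre B cells of mice with and without Uchl1 added to a deregulated Bcl6. The members were all genes whose symbol begins with Mrpl or Mrps followed by a digit, taken from the probe sets that the array annotation assigns to a single gene, with each gene read by whichever of its probe sets was brightest on average over the 6 arrays. This gave 76 member genes among 18193 genes tested. The choice used symbols only and no measured difference. The member genes have 156 probe sets in all, and 4 further probe sets that carry such a symbol together with another gene were left out.

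The control group, ImHABCL6, consisted of 3 mice, and the second group, ImHABCL6/Uchl1, consisted of 3 mice. The ImHABCL6 allele is known as a tagged BCL6 expressed from an immunoglobulin heavy-chain promoter, and both groups carry it, so no wild-type mice were part of the comparison. BCL6 is the transcriptional repressor that defines germinal centre B cells, and UCHL1 is a deubiquitinating enzyme. Animals were immunised with sheep red blood cells, germinal centre B cells were prepared from spleen with magnetic beads, and total RNA was hybridised to Affymetrix mouse expression arrays. The sources used here do not give the promoter that drives Uchl1 or the age of the mice. The comparison asks how the levels of these transcripts differ with Uchl1.

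Mitochondria contain their own ribosome, which translates the few messenger RNAs of the mitochondrial genome, all of them for membrane subunits of the respiratory chain and ATP synthase. Its RNAs come from mitochondrial DNA, but all of its proteins are encoded in the nucleus, made in the cytosol and imported. The large subunit holds the peptidyl transferase centre and the exit tunnel, and the small subunit decodes the messenger. Many of the proteins have counterparts in bacterial ribosomes, and the rest are particular to mitochondria. Mitochondrial translation is known to matter for activated B cells, which grow and divide quickly.

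The deposited values are log2 expression levels, and a difference of 1 on this scale is a doubling of signal. The medians of all 45101 probe sets lay between 5.56 and 5.67 on the 6 arrays, but their spread was not equal. ImHABCL6/Uchl1 replicate 2 had the smallest standard deviation over probe sets, 2.30, against 2.39 to 2.45 on the other arrays. The probe set for Uchl1 read 5.01 ± 0.01 in controls and 5.95 ± 0.08 in ImHABCL6/Uchl1 mice (SD, n = 3 each), and the groups did not overlap (limma adjusted p = 0.638). Of 16 listed germinal centre and B-cell markers 12 were measured, with an array mean of 11.17 in ImHABCL6/Uchl1 replicate 1 and of 10.63 to 10.74 on the other arrays. A higher mean in ImHABCL6/Uchl1 cells was found for 9 of the 12, where 9198 of 18193 genes had one. In limma 2 of them had an unadjusted p under 0.05, where 1.09% of all genes were called in the higher direction, and 0 had an adjusted one. The array means of other cell types were 4.93 to 5.27 for 8 T-cell markers, 4.85 to 5.15 for 10 macrophage and monocyte markers, 5.10 to 6.19 for 8 neutrophil markers, 8.58 to 8.93 for 7 plasma cell markers and 7.32 to 8.41 for 7 megakaryocyte and platelet markers. The 14 measured erythroid markers were bright, with array means from 8.75 to 11.26. The RNA is therefore that of the whole preparation, in which fewer cells of a type and less RNA per cell cannot be told apart.

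The member genes were slightly lower on average in ImHABCL6/Uchl1 cells, and the sign of this shift rested on a single mouse. Of the 76 genes 61 had a lower mean in ImHABCL6/Uchl1 cells, where 49.4% of all genes did, and the median log2 difference was -0.12 beside 0.00 over all genes. The differences ran from -0.41 for Mrpl49 to 0.11 for Mrpl52, so 0 of 76 exceeded 0.5 in size. Without ImHABCL6/Uchl1 replicate 2, only 15 of 76 genes had a lower mean, where 48.0% of all genes did, and the median difference was 0.10. The size of the median also moved with other arrays, to -0.04 without control replicate 1, -0.07 without control replicate 2 and -0.24 without control replicate 3. It was -0.27 without ImHABCL6/Uchl1 replicate 1 and -0.21 without ImHABCL6/Uchl1 replicate 3.

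No member passed the test for a difference between genotypes. With limma and Benjamini-Hochberg adjustment over all genes, 0 of 76 members had an adjusted p under 0.05, as did 0 of 18193 genes (0.0%), and the members' adjusted p values lay between 0.998 and 0.999. At an unadjusted p under 0.05 a single member was called, Mrpl49, or 1 of 76, where 4.94% of all genes were called in either direction and 3.85% in the lower one. The standard error of a member's difference had a median of 0.21, against 0.17 over all genes, and 17 of 76 differences were larger than their own standard error. All 3 ImHABCL6/Uchl1 arrays lay below all 3 controls for 1 of 76 members, Mrpl41, where 5.49% of all genes did, and all 3 lay above for 0 of 76, where 3.95% of all genes did. With fewer arrays non-overlap is more frequent, and the groups did not overlap for 15 of 76 members without control replicate 3 (16.2% of all genes). The count was 1 without control replicate 1 (18.1%) and 1 without control replicate 2 (16.6%). It was 4 without ImHABCL6/Uchl1 replicate 1 (24.4%), 7 without replicate 2 of that group (21.7%) and 5 without its replicate 3 (16.3%).

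The members varied together from mouse to mouse far more than they varied with genotype. ImHABCL6/Uchl1 replicate 2 was the lowest of the 6 arrays for 74 of 76 members, where it was lowest for 27.9% of all genes. In the other two members, Mrpl2 and Mrps27, control replicate 3 was lowest. Control replicate 3 was the lowest control for 75 of 76 members, where it was lowest for 42.9% of all genes, and the exception was Mrpl39. Both statements held at once for 73 of 76 members, where they held for 17.9% of all genes. The pair of ImHABCL6/Uchl1 replicate 2 and control replicate 3 made up the lowest arrays for 67 of 76 members. The highest array was control replicate 1 for 24 members, ImHABCL6/Uchl1 replicate 1 for 24, control replicate 2 for 16 and ImHABCL6/Uchl1 replicate 3 for 12. Shares over all genes were not computed for the lowest pair or the highest array, so these counts describe the members only.

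**Figure D1:**
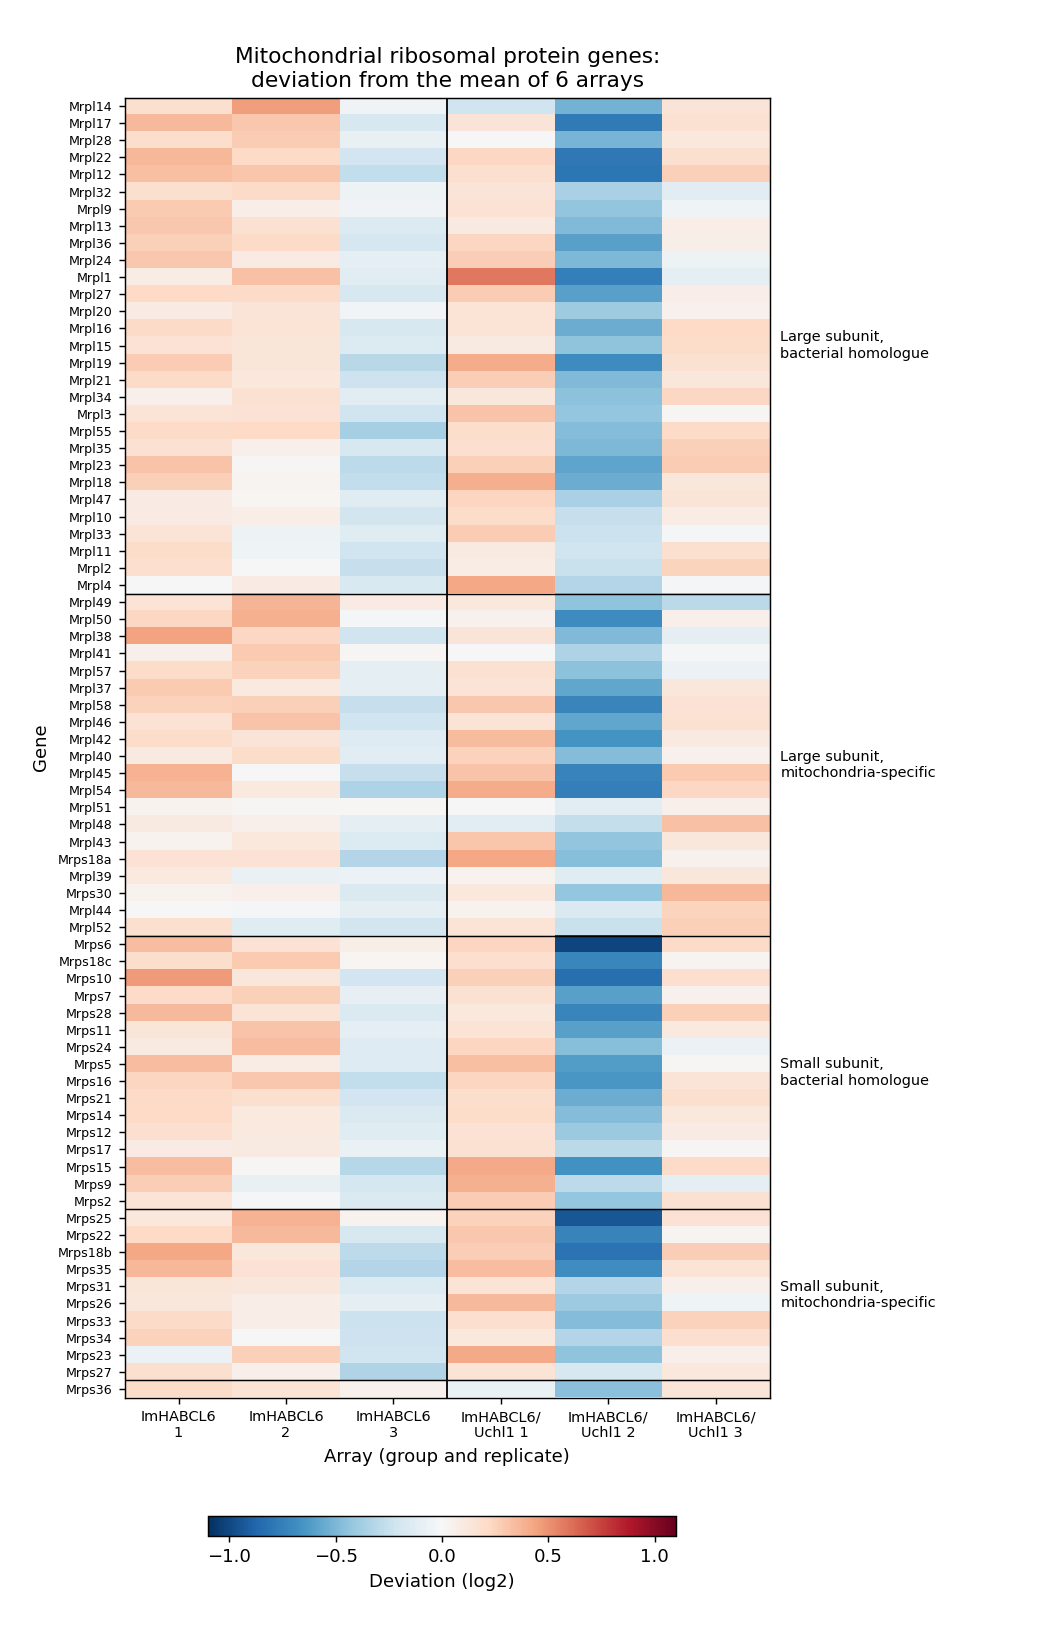
Heat map of the 76 genes (rows, grouped by ribosomal subunit and origin) on the 6 arrays (columns), coloured by the deviation of each log2 value from that gene's mean over the arrays. The column of ImHABCL6/Uchl1 replicate 2 is blue in all 76 rows and that of control replicate 3 in most rows, and the vertical line between the genotypes is no boundary of colour.

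Taken as the median deviation of the 76 genes from their own means over the arrays, the controls stood at 0.20, 0.14 and -0.16 and the ImHABCL6/Uchl1 arrays at 0.19, -0.48 and 0.12 (log2). Replicates 1 and 3 of the ImHABCL6/Uchl1 group thus lay within the range of the controls, and replicate 2 lay below it. The first principal component of the members held 88.4% of their variance over the arrays, against 45.5% for all genes. The members' standard deviation within the ImHABCL6/Uchl1 group was larger than within the controls in 73 of 76 cases, with medians of 0.39 and 0.21, beside 0.22 and 0.15 over all genes.

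ImHABCL6/Uchl1 replicate 2 was also low for bright genes in general, and all 76 members were at or above the median level of the genes tested. Among the 9097 genes at or above that level its median deviation was -0.19, against -0.48 for the members. It was the lowest of the 6 arrays for 4303 of these 9097 genes, and control replicate 3 was the lowest control for 4383. Of the same genes 61.6% had a lower mean in ImHABCL6/Uchl1 cells, and their median difference was -0.06. After quantile normalization, which gives every array the same distribution, the same array stood at -0.01 for those genes and at -0.27 for the members, and control replicate 3 stood at -0.18 for the members. The low position of both arrays was therefore also present with equal distributions, and 43 of 76 members then had a lower mean in ImHABCL6/Uchl1 cells, where 45.2% of all genes did. The median difference of the members was then -0.03, beside 0.02 over all genes, so its size also depended on the normalization.

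The proteins of the large subunit with bacterial counterparts were represented by 29 genes, of which 23 had a lower mean in ImHABCL6/Uchl1 cells, with a median difference of -0.09 and a range from -0.40 to 0.06. The same 29 genes had 6 lower and a median of 0.14 without ImHABCL6/Uchl1 replicate 2. Mrpl14, which encodes a protein near the contact with the small subunit, read 8.54, 8.82 and 8.32 in controls and 8.14, 7.84 and 8.50 in ImHABCL6/Uchl1 cells. Replicate 3 of the latter lay within the controls and the other 2 below them, with means of 8.56 ± 0.25 and 8.16 ± 0.33 (SD, n = 3 each). The difference was -0.40 (SE 0.21, limma adjusted p = 0.998), and -0.23 without ImHABCL6/Uchl1 replicate 2.

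Mrpl32, a protein whose maturation by a mitochondrial protease is a step of ribosome assembly, read 10.49, 10.52 and 10.25 in controls and 10.46, 9.96 and 10.19 in ImHABCL6/Uchl1 cells. The groups overlapped through replicate 1 of the latter, and the difference was -0.22 (SE 0.17), or -0.10 without ImHABCL6/Uchl1 replicate 2. Mrpl28 read 10.26, 10.34 and 9.98 against 10.07, 9.55 and 10.18, where 2 of the 3 ImHABCL6/Uchl1 values lay among the controls. Its difference was -0.26 (SE 0.20). Mrpl12, a stalk protein that also binds the mitochondrial RNA polymerase, read 10.44, 10.41 and 9.84 in controls and 10.29, 9.31 and 10.38 in ImHABCL6/Uchl1 cells. In each group a single mouse stood low, by 0.5 or more on the log2 scale. The Mrpl12 difference was -0.24 (SE 0.30) with all arrays and 0.10 without ImHABCL6/Uchl1 replicate 2.

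The large-subunit proteins particular to mitochondria were represented by 20 genes, of which 15 had a lower mean in ImHABCL6/Uchl1 cells, with a median difference of -0.11, and 5 did without ImHABCL6/Uchl1 replicate 2, with a median of 0.09. Mrpl49 had the smallest unadjusted p of all members, 0.0483 in limma, and an adjusted p of 0.998. Its probe set read 9.37, 9.60 and 9.31 in controls and 9.34, 8.78 and 8.93 in ImHABCL6/Uchl1 cells, or 9.43 ± 0.15 against 9.02 ± 0.29 (SD, n = 3 each). Replicates 2 and 3 of the ImHABCL6/Uchl1 group lay below every control and replicate 1 among them, and an exact two-sided permutation test gave p = 0.2, where 0.1 is the smallest that 3 mice against 3 allow. The difference was -0.41 (SE 0.18), a 1.33-fold lower signal, and -0.29 without ImHABCL6/Uchl1 replicate 2. The second Mrpl49 probe set gave a difference of -0.10.

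Mrpl41 was the member whose groups did not overlap, at 10.71, 10.94 and 10.67 in controls and 10.65, 10.31 and 10.63 in ImHABCL6/Uchl1 cells. The gap between the groups was narrow, since control replicate 3 and ImHABCL6/Uchl1 replicate 1 differed by less than the spread within either group. Its difference was -0.24 (SE 0.15, exact permutation p = 0.1). Mrpl50 read 8.56, 8.73 and 8.31 against 8.38, 7.64 and 8.40, with a difference of -0.39 (SE 0.23) that was -0.14 without ImHABCL6/Uchl1 replicate 2. Mrpl38, which had the second-lowest probe set signal of the members, read 7.81, 7.58 and 7.14 against 7.50, 6.87 and 7.25, and its difference was -0.30 (SE 0.22).

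On the higher side the members with the largest differences were Mrpl52, Mrpl44 and Mrps27. Mrpl52 read 11.11, 10.80 and 10.73 in controls and 11.08, 10.69 and 11.20 in ImHABCL6/Uchl1 cells, so that the groups covered nearly the same range, with a difference of 0.11 (SE 0.18). The 2 other bright probe sets of Mrpl52 differed the opposite way, by -0.26 and -0.25. Mrpl44, whose protein belongs to the ribonuclease III family, read 9.78, 9.77 and 9.68 against 9.82, 9.62 and 10.03, a difference of 0.08 (SE 0.14). Mrpl51 had the highest probe set signal of the members and varied least, at 11.72, 11.69 and 11.68 in controls and 11.68, 11.55 and 11.73 in ImHABCL6/Uchl1 cells. The signal of a probe set depends on its probes as well as on the transcript, so signals are not ranked between genes as levels of expression.

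**Figure D2:**
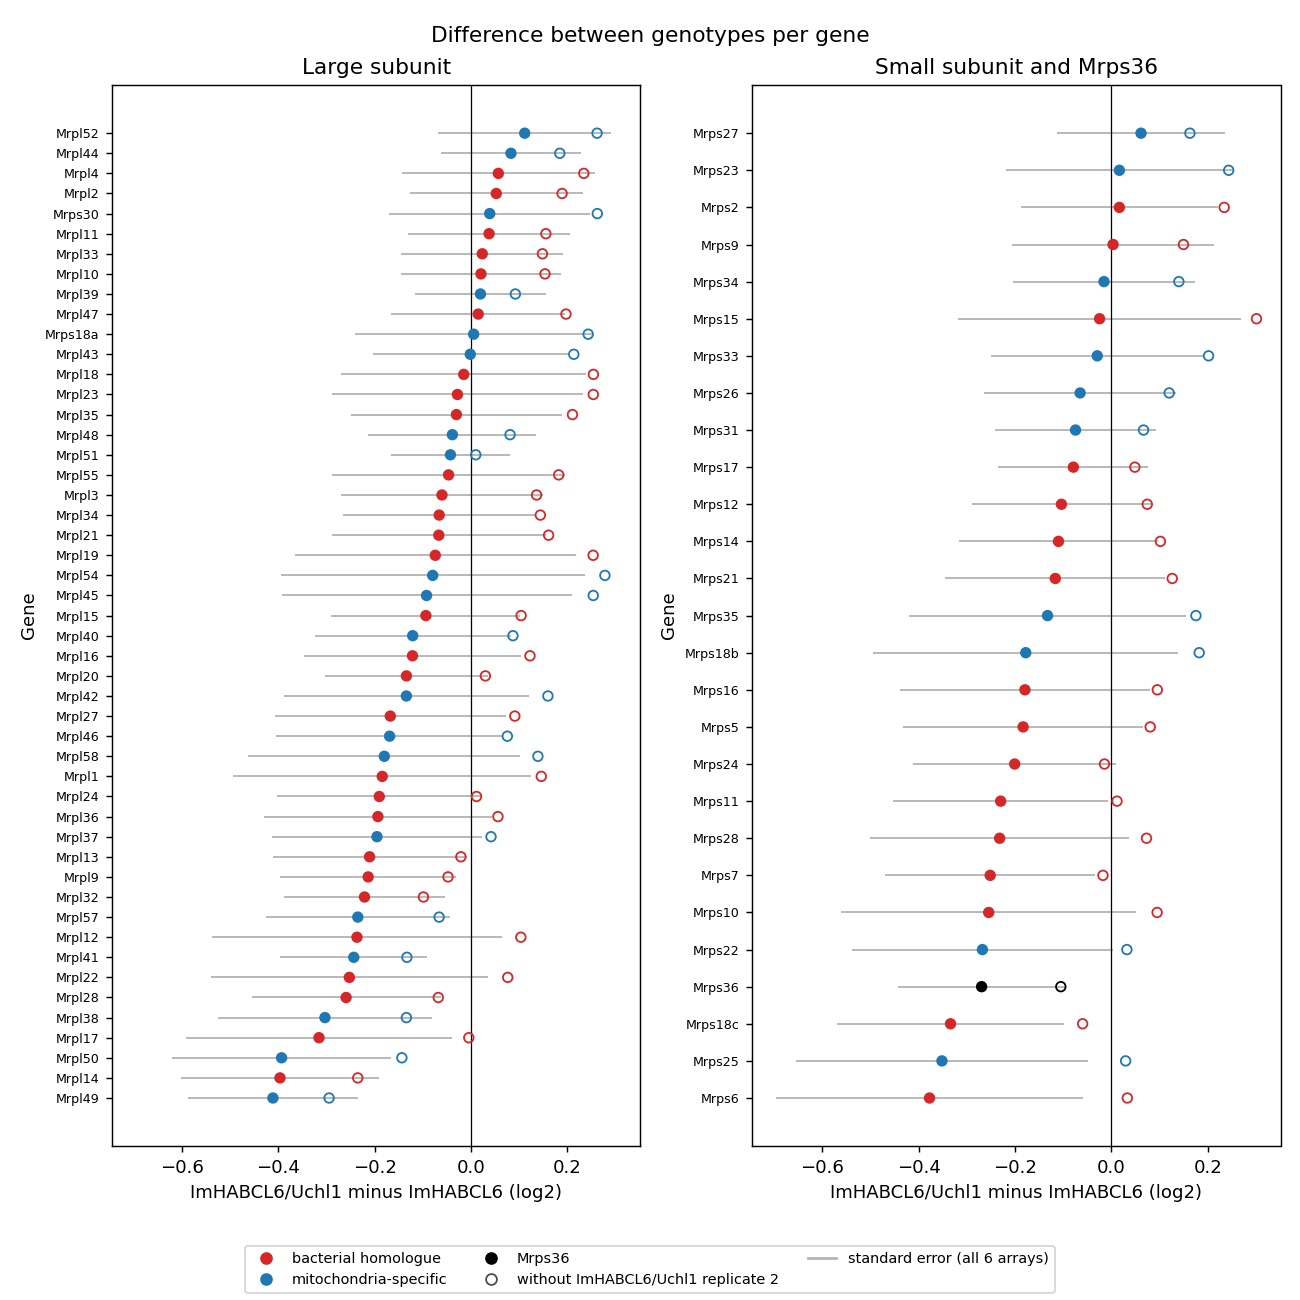
Difference between genotypes (ImHABCL6/Uchl1 minus ImHABCL6, log2) for each gene of the large subunit (left) and of the small subunit with Mrps36 (right), as filled points with their standard errors for all 6 arrays and as open points without ImHABCL6/Uchl1 replicate 2. The filled points run from -0.41 to 0.11, and the open points lie to their right, with 61 of 76 above 0.

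The small-subunit proteins with bacterial counterparts were represented by 16 genes, of which 14 had a lower mean in ImHABCL6/Uchl1 cells, with a median difference of -0.18, and 3 did without ImHABCL6/Uchl1 replicate 2, with a median of 0.08. Mrps18c read 11.30, 11.40 and 11.12 in controls and 11.29, 10.39 and 11.14 in ImHABCL6/Uchl1 cells. Replicates 1 and 3 of the ImHABCL6/Uchl1 group were within the controls and replicate 2 was below them, so that the difference of -0.33 (SE 0.23) was -0.06 without that array. Mrps6 showed the same arrangement most sharply, at 8.48, 8.30 and 8.21 against 8.38, 7.14 and 8.35. ImHABCL6/Uchl1 replicate 2 was 1.23 below the mean of the other arrays of its group, the largest such gap of any member. The Mrps6 difference was -0.38 (SE 0.32) with all arrays and 0.03 without that one. Mrps7, a protein of the head of the small subunit, read 9.98, 10.03 and 9.68 against 9.94, 9.18 and 9.82, a difference of -0.25 (SE 0.22) that was -0.02 without ImHABCL6/Uchl1 replicate 2.

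The small-subunit proteins particular to mitochondria were represented by 10 genes, of which 8 had a lower mean in ImHABCL6/Uchl1 cells with all arrays and 0 did without ImHABCL6/Uchl1 replicate 2. The median difference was -0.07 with all arrays and 0.15 without that array. Mrps25 read 9.10, 9.37 and 9.02 against 9.24, 8.05 and 9.15, and Mrps22 read 9.17, 9.30 and 8.77 against 9.25, 8.21 and 8.98. In both, 2 of the 3 ImHABCL6/Uchl1 mice were within the range of the controls. The differences were -0.35 (SE 0.30) for Mrps25 and -0.27 (SE 0.27) for Mrps22, and each was 0.03 without ImHABCL6/Uchl1 replicate 2. Mrps27, an RNA-binding protein of the pentatricopeptide repeat family with the lowest probe set signal of the members, read 7.06, 6.94 and 6.55 against 7.03, 6.71 and 6.99. Its difference was 0.06 (SE 0.17).

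The paralogues Mrps18a, Mrps18b and Mrps18c encode 3 related proteins that occupy different places in the ribosome, and the product of Mrps18a, like that of Mrps30, is part of the large subunit in spite of its name. Mrps18a read 9.70, 9.69 and 9.21 in controls and 9.97, 9.07 and 9.59 in ImHABCL6/Uchl1 cells, a difference of 0.01 (SE 0.25). Mrps18b read 8.77, 8.47 and 8.06 against 8.62, 7.54 and 8.62, a difference of -0.18 (SE 0.32). All 3 paralogues were lowest in ImHABCL6/Uchl1 replicate 2, and within the controls all 3 were lowest in replicate 3.

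Mrps36 carries the symbol of a small-subunit protein but is now known as a subunit that anchors the E3 component of the 2-oxoglutarate dehydrogenase complex. It read 9.74, 9.70 and 9.59 in controls and 9.47, 9.08 and 9.68 in ImHABCL6/Uchl1 cells, a difference of -0.27 (SE 0.17) that was -0.10 without ImHABCL6/Uchl1 replicate 2. Of 7 listed mitoribosomal proteins with symbols of another kind 4 were measured, and 3 of the 4 had a lower mean in ImHABCL6/Uchl1 cells, or 1 of the 4 without ImHABCL6/Uchl1 replicate 2. Dap3, a GTP-binding protein of the small subunit, differed by -0.18 (SE 0.15), Chchd1 by -0.19 (SE 0.23), Ptcd3 by -0.12 (SE 0.19) and Gadd45gip1 by 0.13 (SE 0.32). All 4 were lowest in ImHABCL6/Uchl1 replicate 2, and all 4 had control replicate 3 as the lowest control.

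The probe sets that were not used to represent a gene were also often lowest in ImHABCL6/Uchl1 replicate 2 where they were bright. Of 44 such probe sets at or above the median level 32 were lowest in that array, where 4303 of 9097 genes at or above that level were. A lower mean in ImHABCL6/Uchl1 cells was found for 27 of the 44, near the 61.6% of those genes. Of 36 dimmer ones 18 had a lower mean and 11 were lowest in that array, beside 49.4% and 27.9% of all genes. Among 28 genes with several probe sets at or above the median level, 14 had probe sets that differed in sign between genotypes.

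The other genes of mitochondrial gene expression and import were compared from lists of known members. In 5 such lists, of 16, 30, 20, 16 and 19 measured genes, no gene had an adjusted p under 0.05 in limma. The unadjusted p was under 0.05 for 4 genes, all lower, where 4.94% of all genes were called in either direction and 3.85% in the lower one. The counts lower below stand beside 49.4% of all genes and 61.6% of those at or above the median level. Without ImHABCL6/Uchl1 replicate 2 these were 48.0% of all genes and 3923 of the 9097 at or above the median level. Of 16 measured mitochondrial translation factors 13 had a lower mean in ImHABCL6/Uchl1 cells (median difference -0.14), and 8 did without ImHABCL6/Uchl1 replicate 2 (median -0.00096). Among them Gfm2, a factor of ribosome recycling, was at -0.30 (SE 0.22), Metap1d at -0.30 (SE 0.19) and Gatc at -0.18 (SE 0.13). Of 30 assembly factors 23 had a lower mean (median -0.12), and 15 did without that array (median -0.01). They include the ribosomal RNA methyltransferases Tfb1m at -0.30 (SE 0.12) and Mrm1 at -0.76 (SE 0.26). Tfb1m read 8.95, 8.95 and 9.02 in controls and 8.75, 8.56 and 8.72 in ImHABCL6/Uchl1 cells, with no overlap, and its adjusted p was 0.995.

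Of 20 genes for the upkeep and transcription of mitochondrial DNA and the processing of its RNA 15 had a lower mean (median -0.16), and 5 did without ImHABCL6/Uchl1 replicate 2 (median 0.07). Pnpt1, a mitochondrial RNA nuclease, was at -0.44 (SE 0.19). Of 16 mitochondrial tRNA synthetases 12 had a lower mean (median -0.08), and 8 did without that array (median -0.01). Nars2, which charges the asparagine tRNA, read 7.94, 8.02 and 7.96 in controls and 7.64, 7.39 and 7.40 in ImHABCL6/Uchl1 cells, again with no overlap, at a difference of -0.49 (SE 0.13, limma adjusted p = 0.854). Of 19 import genes 13 had a lower mean (median -0.07), beside 61.6% of genes at or above the median level (median -0.06). ImHABCL6/Uchl1 replicate 2 was the lowest array for 18 of the 19, where it was for 4303 of those 9097 genes. Without that array 3 of the 19 had a lower mean, and the median was 0.12. Among 11 transcriptional regulators linked to mitochondrial genes 5 had a lower mean (median 0.04). Pprc1, a coactivator of the PGC-1 family, was at -0.43 (SE 0.22), Yy1 at -0.25 (SE 0.15) and Mycn at 0.23 (SE 0.15).

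The 46 measured genes of the cytosolic ribosome, named Rpl or Rps, had a median difference of -0.06, with 36 lower, where 49.4% of all genes were. Without ImHABCL6/Uchl1 replicate 2 their median difference was 0.03, with 13 lower, where 48.0% of all genes were. Their median deviations were 0.09, 0.04 and -0.05 in controls and 0.06, -0.19 and 0.05 in ImHABCL6/Uchl1 cells, so the order of the low arrays was the same as for the mitochondrial ribosome and each deviation was smaller in size. The 19 measured proliferation genes followed another order, with 0.09, 0.06 and 0.19 in controls against -0.14, -0.20 and -0.06, so that their groups did not overlap and control replicate 3 was the highest array. Of these 19 genes 19 had a lower mean in ImHABCL6/Uchl1 cells, where 49.4% of all genes and 61.6% of those at or above the median level did. None had an adjusted p under 0.05 in limma. An unadjusted p under 0.05 was found for 3, where 4.94% of all genes were called in either direction and 3.85% in the lower one.

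**Figure D3:**
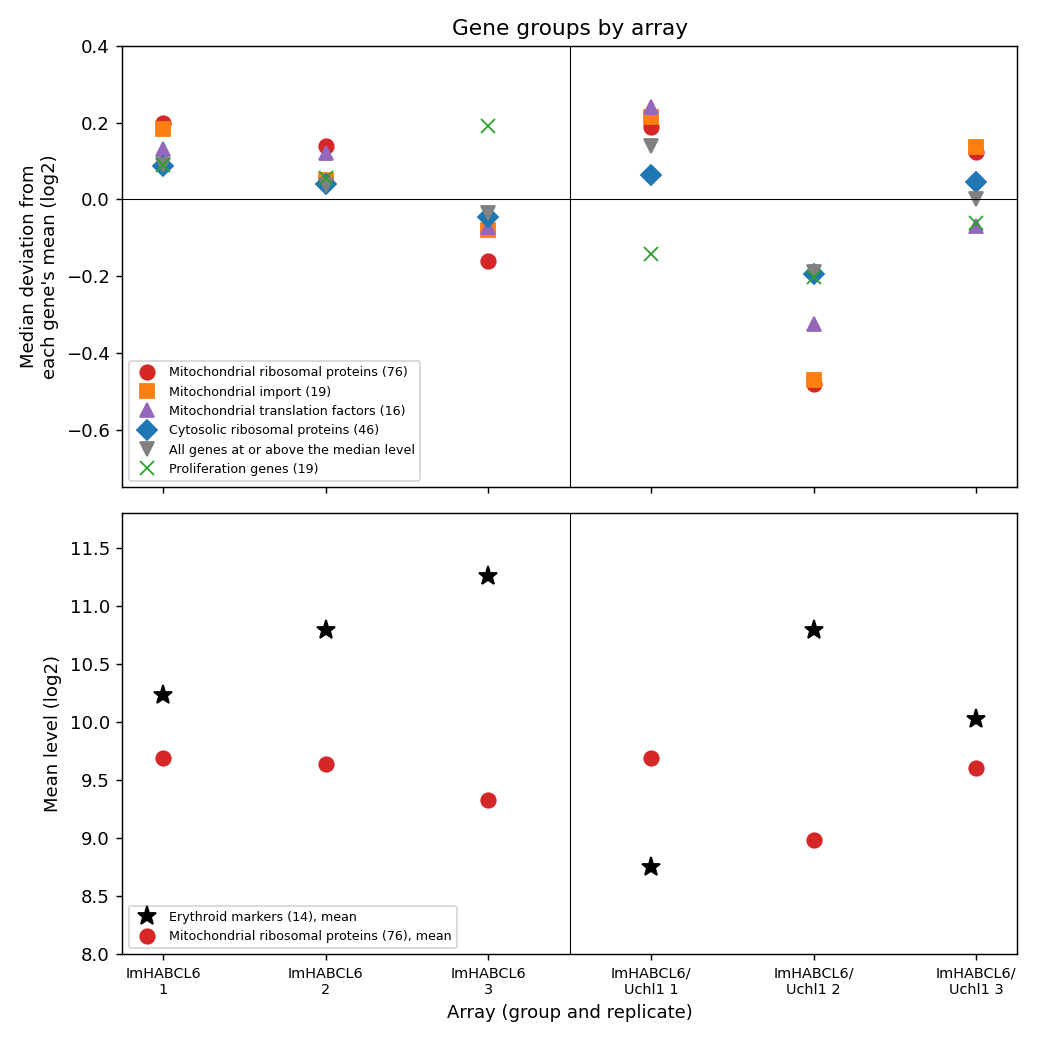
Upper panel, median deviation from each gene's own mean (log2) on the 6 arrays for 5 gene groups and for all genes at or above the median level; lower panel, mean log2 level of the 14 erythroid markers (stars) and the 76 genes (circles) on the same arrays. The 76 genes are at -0.48 in ImHABCL6/Uchl1 replicate 2 and at -0.16 in control replicate 3, whereas proliferation genes are highest in control replicate 3.

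Erythroid transcripts varied between the mice and were lower on average in ImHABCL6/Uchl1. Of the 14 erythroid markers 12 had a lower mean in ImHABCL6/Uchl1 mice (median difference -1.07), where 49.4% of all genes did. Of the 12, 7 had an unadjusted p under 0.05 in limma, where 3.85% of all genes were called in the lower direction, and 0 had an adjusted one. Without ImHABCL6/Uchl1 replicate 2 all 14 were lower (median -1.40). The mean of the 14 erythroid markers was 10.23, 10.79 and 11.26 in controls and 8.75, 10.80 and 10.03 in ImHABCL6/Uchl1 mice, while the mean of the 76 genes was 9.69, 9.64 and 9.33 and then 9.69, 8.98 and 9.60. Control replicate 3 had the highest erythroid mean and was the lowest control for the mitochondrial ribosomal genes. Control replicate 2 and ImHABCL6/Uchl1 replicate 2 had nearly equal erythroid means, while their means of the 76 genes were 9.64 and 8.98. ImHABCL6/Uchl1 replicate 1 was lowest in erythroid markers and level with control replicate 1 at the top for the 76 genes. The part of red-cell RNA in this was not tested. The erythroid mean was thus unevenly spread over the genotypes, and as a covariate it shares variation with the contrast and leaves 3 residual degrees of freedom. With it in the fit, 75 of 76 members were lower in ImHABCL6/Uchl1 cells, where 52.8% of all genes were, and the median difference was -0.42. In that fit 43 of 76 members had an unadjusted p under 0.05, where 16.4% of all genes had, and the limma adjusted p was under 0.05 for 0 of 76, with 0.267 the lowest.

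Weighting arrays by how closely their values followed the group means moved the result the other way. ImHABCL6/Uchl1 replicate 2 received the lowest weight, 0.297, and replicate 3 of the same group the highest, 3.30. Then 36 of 76 members had a lower mean, with a median difference of 0.01. The weights came from these same values, so this fit is not independent of leaving replicate 2 out. The adjusted p of the members was at least 0.169 under that weighting.

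**Figure D4:**
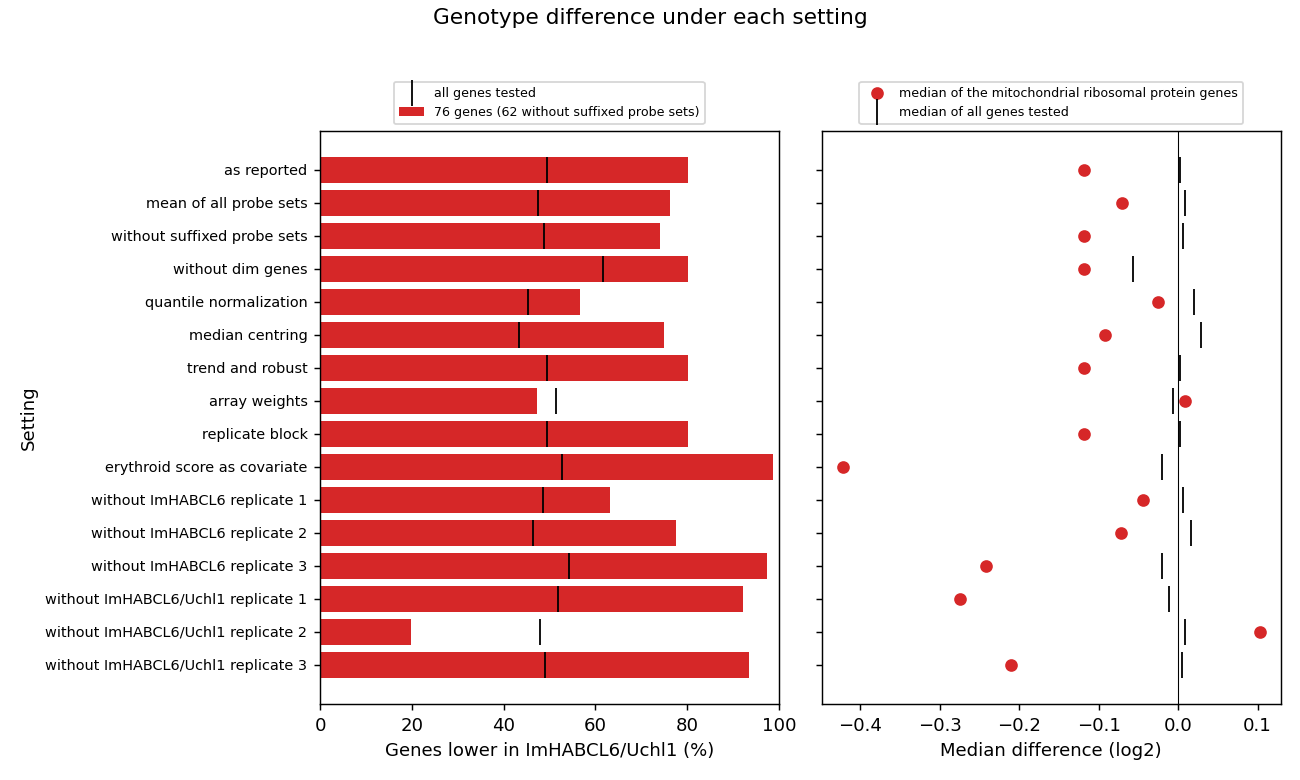
Share of the genes with a lower mean in ImHABCL6/Uchl1 cells (left, bars from 0) and their median log2 difference (right, circles) under each setting, with the same quantity over all genes tested as a black tick. The median runs from -0.42 with the erythroid covariate to 0.10 without ImHABCL6/Uchl1 replicate 2.

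The promoters of the member genes were examined because these genes moved together over the arrays. RefSeq promoter sequences of build GRCm38.p6 were matched for 67 of 76 members, with 73 transcription starts, and the 250 bases before each start were searched on both strands for 3 motifs. CCGGAAG, the core bound by ETS factors such as GABP, was found in 23.3% of member promoters, in 10.4% of the promoters of tested genes and in 8.98% of all promoters of protein-coding genes. The palindromic core of the NRF1 motif was found in 4.11%, 1.30% and 1.07%, and CACGTG, the E-box bound by MYC and related factors, in 9.59%, 7.54% and 6.63%. These shares are per transcription start, and neighbouring starts of Mrpl2 share the same E-box. Counted by gene, the E-box was in 5 of 67 members and in 1187 of 13272 tested genes, a lower share for the members. By the same count the ETS motif was in 17 members and 1619 tested genes, and the NRF1 motif in 3 and 200. At least 1 of the 3 was found in 24 of 67 genes. None of the 3 motifs contains another, and a match is a description of the sequence only.

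Below are the 250 bases before the start of 4 members, chosen to show each motif, in lower case with the matches in capitals. Mrpl32 (chr13:14613038-14613287, minus strand) and Mrpl39 (chr16:84735245-84735494, minus strand) hold the NRF1 motif. Mrps18c (chr5:100798509-100798758, plus strand) holds an E-box followed after a single base by the ETS motif on the other strand. Mrps22 (chr9:98601680-98601929, minus strand) holds the ETS motif with 4 bases between it and the start.
Mrpl32: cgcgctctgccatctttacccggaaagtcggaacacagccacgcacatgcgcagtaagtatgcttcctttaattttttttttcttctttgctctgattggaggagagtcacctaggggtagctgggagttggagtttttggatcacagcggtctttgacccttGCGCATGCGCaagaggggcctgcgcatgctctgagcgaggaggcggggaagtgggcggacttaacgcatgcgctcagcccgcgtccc
Mrpl39: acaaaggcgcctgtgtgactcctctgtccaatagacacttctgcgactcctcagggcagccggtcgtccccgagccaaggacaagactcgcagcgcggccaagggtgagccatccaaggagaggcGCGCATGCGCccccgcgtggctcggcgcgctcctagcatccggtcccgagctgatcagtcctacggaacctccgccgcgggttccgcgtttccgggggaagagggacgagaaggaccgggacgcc
Mrps18c: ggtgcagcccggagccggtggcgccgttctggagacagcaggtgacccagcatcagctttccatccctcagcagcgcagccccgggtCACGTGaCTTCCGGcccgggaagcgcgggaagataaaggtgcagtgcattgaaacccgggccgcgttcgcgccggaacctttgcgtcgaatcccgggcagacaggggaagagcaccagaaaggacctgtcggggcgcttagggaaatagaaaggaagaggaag
Mrps22: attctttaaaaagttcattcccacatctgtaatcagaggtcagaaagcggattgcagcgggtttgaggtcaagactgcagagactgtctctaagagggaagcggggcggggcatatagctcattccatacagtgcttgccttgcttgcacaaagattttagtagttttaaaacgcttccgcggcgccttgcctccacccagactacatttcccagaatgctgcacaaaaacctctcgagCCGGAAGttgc

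The levels of these 4 genes varied by different amounts. Over the 6 arrays Mrps22 spanned 1.09 and Mrps18c 1.01 on the log2 scale, Mrpl32 spanned 0.57 and Mrpl39 0.26, with Mrpl39 at 11.16, 10.97 and 10.98 in controls and 11.08, 10.91 and 11.18 in ImHABCL6/Uchl1 cells. Members with the ETS motif had a median difference between genotypes of -0.06 (17 genes), and those without it -0.13 (50 genes). For the NRF1 motif the order was the opposite, at -0.21 with it (3 genes) and -0.12 without it (64 genes). For the E-box the medians were -0.19 with it (5 genes) and -0.11 without it (62 genes).

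The members were often arranged head to head with another gene. For 23 of 67 members, or 34.3%, another protein-coding gene started on the opposite strand within 1000 bases upstream, against 10.2% of tested protein-coding genes. Mrpl46 and Mrps11, of the large and the small subunit, start 42 bases apart, and both were lowest in ImHABCL6/Uchl1 replicate 2. Mrpl46 read 9.59, 9.75 and 9.22 in controls and 9.59, 8.87 and 9.61 in ImHABCL6/Uchl1 cells, and Mrps11 read 8.38, 8.56 and 8.14 against 8.39, 7.65 and 8.35. Other partners with mitochondrial roles were Sars2, the mitochondrial serine tRNA synthetase, beside Mrps12, the replicative helicase Twnk beside Mrpl43, the pentatricopeptide repeat protein Ptcd2 beside Mrps27 and the complex I subunit Ndufb5 beside Mrpl47. These were picked for those roles, and further partners included Tcp1, Hira, Ncapd2 and Gga3. These head-to-head genes were described after their values had been seen.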

How the data were processed

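Expression was measured on 6 Affymetrix mouse arrays, 3 per genotype, of bead-isolated splenic germinal centre B cells, with 3 mice per genotype according to the series' design text. The deposited values are log2 levels per probe set that the authors made with RMA and Partek, per the submitters' processing notes, and the settings and versions are not given in the sources used here. The number of arrays limits the precision. Of 45101 probe sets, 64 controls and 932 with several gene symbols were left out and 34945 with a single symbol were used, giving 18193 genes, of which 18032 matched RefSeq by gene ID. Each gene took its probe set of highest mean. The test between genotypes was that of limma (version 3.58.1, under R 4.3.3), fitted over all genes with eBayes and Benjamini-Hochberg adjustment, and exact permutation tests were two-sided. The code was tested on simulated data.

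Genes were named by a rule: in each of the 4 classes of subunit and origin the 3 of smallest p, the 3 largest differences each way, the 2 brightest and 2 dimmest, the Mrps18 paralogues, Mrpl12, Mrps36 and mitoribosomal proteins of other names. In each other list the rule took the 3 of smallest p, but the text names only some of these. None of those for import, proliferation, the cytosolic ribosome or cell types is named. Genes of the promoter paragraphs were chosen after their values were seen. The members and lists were chosen with earlier results of these data known. Alternatives covered probe set choice, a filter on dim genes, normalization, array weights, a replicate block, an erythroid covariate and leaving out each array.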

Additional observations from a re-analysis of the deposited data

How the results depend on the processing

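The precision is limited by 3 arrays per genotype, so differences of the size seen here cannot be told from the spread between mice. No member had an adjusted p under 0.05 in any of the 9 alternatives or with any array left out. With quantile normalization the median difference was -0.025 and 43 members were lower. With array weights the median difference was 0.0088 and 36 members were lower, and with the erythroid covariate the median was -0.42 and 43 members had an unadjusted p under 0.05. That count was 0 with the mean of all probe sets, without suffixed probe sets, without dim genes, with median centring, with trend and robust fitting and with the replicate block. The count without overlap was 0 without suffixed probe sets and with median centring. It was not computed for the fits that leave the values as they are. The causes were not tested.

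Leaving out each array in turn gave 15 to 74 members lower, a median difference from -0.27 to 0.10, 0 to 1 members with an unadjusted p under 0.05, and 1 to 15 members without overlap. The difference ran from -0.59 to 0.033 for Mrps6, -0.57 to 0.030 for Mrps25, -0.48 to 0.032 for Mrps22, -0.37 to 0.18 for Mrps18b, -0.088 to 0.17 for Mrps27, -0.019 to 0.18 for Mrpl44 and -0.082 to 0.0098 for Mrpl51. It ran from -0.21 to 0.24 for Mrps18a, -0.43 to 0.10 for Mrpl12, -0.36 to 0.078 for Chchd1, -0.27 to 0.019 for Ptcd3 and -0.19 to 0.42 for Gadd45gip1.

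The sign also turned for Mrpl44 (-0.045) and Mrpl52 (-0.14) with the mean of all probe sets, and for Mrpl44 (-0.15), Mrpl52 (-0.26) and Mrpl38 (0.077) without suffixed probe sets. It turned for Mrps18b (0.11), Mrpl51 (0.019) and Mrpl12 (0.030) with array weights, and for Mrps27 (-0.13), Mrpl52 (-0.074), Mrps18a (-0.38) and Gadd45gip1 (-0.10) with the erythroid covariate. Same-numbered arrays of the genotypes had correlations of 0.43, 0.19 and -0.26 in their deviations, so the numbers were not taken as pairs. With the replicate block 61 members were lower and the median difference was -0.12.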

Other observations

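Of 21 measured genes that start head to head with a member and are no member themselves, 15 were lower on average with Uchl1, and their median difference was -0.06 (log2). A lower mean was found for 49.4% of all genes and for 61.6% of those at or above the median level, with medians of 0.00 and -0.06. Of the same 21 genes 9 were lowest in ImHABCL6/Uchl1 replicate 2, against 27.9% of all genes and 4303 of the 9097 genes at or above the median level. Twnk, the mitochondrial DNA helicase that starts 116 bases from Mrpl43, read 8.19, 7.94 and 7.88 in controls and 8.06, 7.68 and 8.11 in ImHABCL6/Uchl1 cells. Ndufb5, which starts 308 bases from Mrpl47, read 11.40, 11.26 and 11.20 in controls and 11.72, 10.93 and 11.43 in ImHABCL6/Uchl1 cells. In both genes the groups overlapped and ImHABCL6/Uchl1 replicate 2 was the lowest array. Other partners differed, with Sars2 lowest in control replicate 3 and Hira lowest in ImHABCL6/Uchl1 replicate 3.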
